A study of Mus musculus with 3 samples.

Results

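The Piwil1 window holds the Ptbp2 HITS-CLIP reads on the plus strand of chromosome 5 that lie wholly between mm9 positions 129241001 and 129262000. It contained 807 of the 1727697 deposited reads. The window and its tall cluster, near the downstream end, were chosen by read height in these same libraries, so the heights and read numbers below are given as descriptions and carry no test. The libraries came from the testes of 3 male CD1 mice aged 8 weeks, which form 1 group with no treatment, no mutant and no input or control library. HITS-CLIP crosslinks RNA to protein and sequences the RNA fragments recovered with the chosen protein, here Ptbp2, from whole testis. Fewer cells with the transcript and less bound RNA per cell cannot be told apart in such material. Each deposited read carries 1 of 3 display colours. The labels do not say which animal a colour stands for, so the red, green and blue classes are read as 3 libraries without names and reported singly, with no SD.

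Piwil1, also called MIWI, encodes a PIWI-clade Argonaute protein of the male germ line. PIWI proteins carry piRNAs, small RNAs that guide them to other transcripts, and Piwil1 acts with the piRNAs that appear in pachytene spermatocytes and persist into round spermatids. Male mice without Piwil1 arrest during the differentiation of spermatids. Ptbp2 is an RNA-binding protein of the polypyrimidine tract-binding family that recognises pyrimidine-rich RNA and regulates alternative splicing, in neurons and in germ cells.

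The name Piwil1 was taken from the definition of the window, since gene models and sequence in mm9 were not used here. Which reads were exonic, intronic or in a UTR was therefore not analysed. In the RefSeq table of the later assembly GRCm38.p6, Piwil1 is a plus-strand gene, and both of its neighbours, the non-coding gene Gm33995 before it and Rimbp2 after it, lie on the minus strand. The other genes of the piRNA pathway and the markers of testis cell types could not be placed in mm9 either, and were not analysed here.

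Reads filled a stretch of 19.7 kb inside the window, from 129242048 to 129261736. The nearest plus-strand read outside the window upstream lay at 129240953 to 129240994, which leaves 1053 nt before the stretch, and the nearest downstream lay at 129262333 to 129262398, which leaves 596 nt after it. The 5 kb upstream of the window held 1 plus-strand read and the 5 kb downstream held 6. The edges of the window thus fell in sparsely read sequence, and moving them made little difference to the number of reads. Widening the window by 2 kb on each side gave 813 reads.

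Almost all reads in the window came from the plus strand. The minus strand held 2 reads, 1 red at 129241291 to 129241329 and 1 green at 129241375 to 129241426, so 99.8% of the window's reads were on the plus strand (95% Wilson interval 99.1 to 99.9). Both of these minus-strand reads lay upstream of the first plus-strand read. Between the first and the last plus-strand read there were 0 minus-strand reads beside the 807, which allows a share of up to 0.372%. Within the bounds of the tall cluster there were 0 minus-strand reads beside 389, which allows up to 0.771%. These intervals and limits reflect counting error alone, because PCR copies of a molecule are not separate observations.

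All 3 classes contributed to the window. The red class held 181 reads there, or 367 RPM (reads for every 1000000 in the class) of its 493620. The green class held 503 reads, or 528 RPM of its 952096. The blue class held 123 reads, or 436 RPM of its 281981. The order of the classes by RPM was green, blue and red, and the window held 304 reads without the green class. With 1 library per class the spread between animals within a class is not known. Green reads made 62.3% of the window's reads (95% Wilson interval 58.9 to 65.6), against 55.1% of all reads in the file. Red reads made 22.4% (19.7 to 25.4) against 28.6%, and blue reads 15.2% (12.9 to 17.9) against 16.3%. The window was picked by pooled read height, to which green gives the most reads, so these shares do not show that the classes differ. Their intervals reflect counting error among reads alone.

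The window was densely read for its chromosome. Its 38.4 plus-strand reads per kb compared with 0.406 per kb over the plus strand of chromosome 5, a ratio of 94.5 (95% interval 88.3 to 101 from the binomial share). By class the ratio was 73.0 (red), 108 (green) and 88.7 (blue). Among 120375 strand-specific tiles of 21 kb that held a read, the median was 3 reads and 4 tiles held 807 or more. The tiles were laid on a fixed grid and the window was laid around its reads, so these numbers place the locus without testing it.

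**Figure D1:**
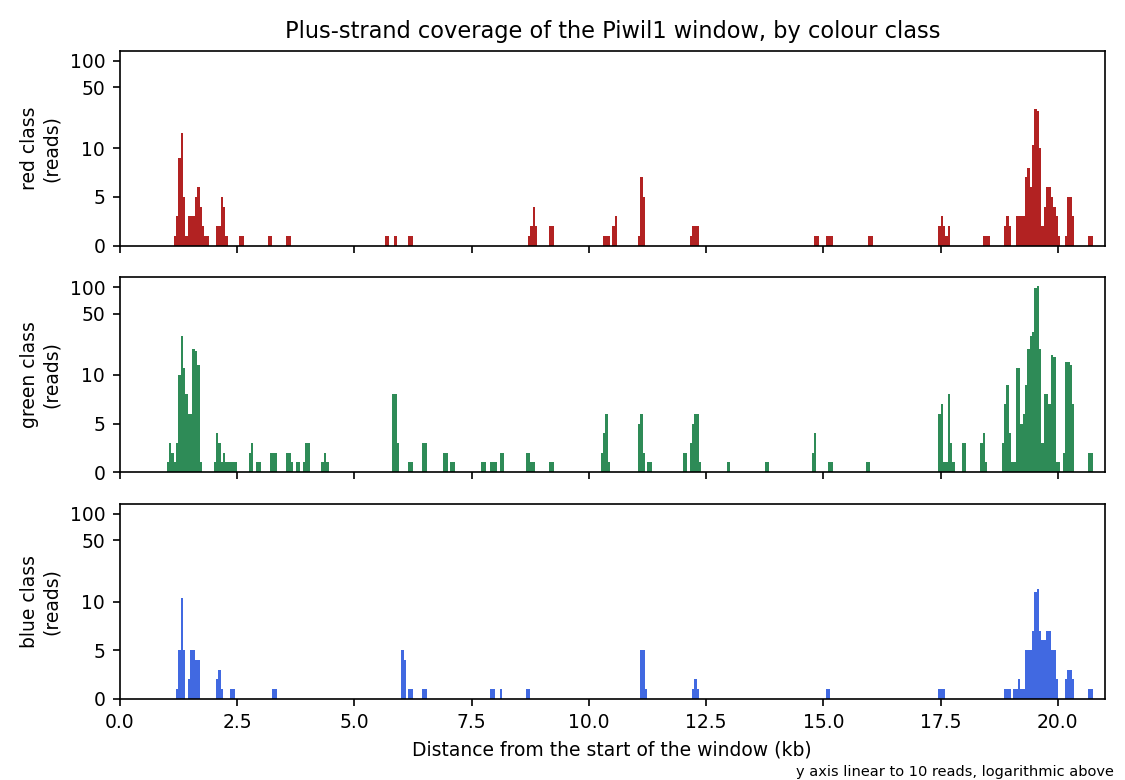
Highest number of overlapping plus-strand reads in each 50 nt step along the Piwil1 window, for the red, green and blue classes; the y axis is linear up to 10 reads and logarithmic above. In each class the highest step lies in the last 2 kb, at 28, 103 and 14 reads, and a lower group of reads stands between 1 and 2 kb from the start.

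Reads lay mainly at the ends of the stretch. In steps of 1 kb, with each read counted at its midpoint, the second step held 157 reads and the next 27. Together these upstream steps, from 129242001 to 129244000, held 22.8% of the reads (95% Wilson interval 20.04 to 25.8). The 14 steps from 129244001 to 129258000 held 128 reads, or 15.9% (13.5 to 18.5), with a median of 8 reads a step and a range of 0 to 21. The last 4 steps held 495 reads, or 61.3% (57.9 to 64.6), of which 389 fell in the step from 129260001 to 129261000. The middle of the window was thus read thinly but along most of its length, since 13 of its 14 steps held at least 1 read. The longest stretches without a read were 1440 nt, from 129257013 to 129258452, and 1278 nt, from 129245420 to 129246697. Of the bases between the first and the last read, 28.5% were covered by at least 1 read and 5.62% by at least 10.

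The last 4 steps held the most reads and the middle the fewest in each class. The upstream steps held 24.9% of red, 21.3% of green and 26.0% of blue reads. The middle steps held 18.2% of red, 15.1% of green and 15.4% of blue reads, and the last 4 steps held 56.9%, 63.6% and 58.5%. Over the 21 steps, log2(reads + 1) of the red class had a Pearson's r of 0.90 with the green class and 0.84 with the blue class, and green had 0.84 with blue. These are descriptions over steps of the same transcript, which share its structure and are not replicates.

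**Figure D2:**
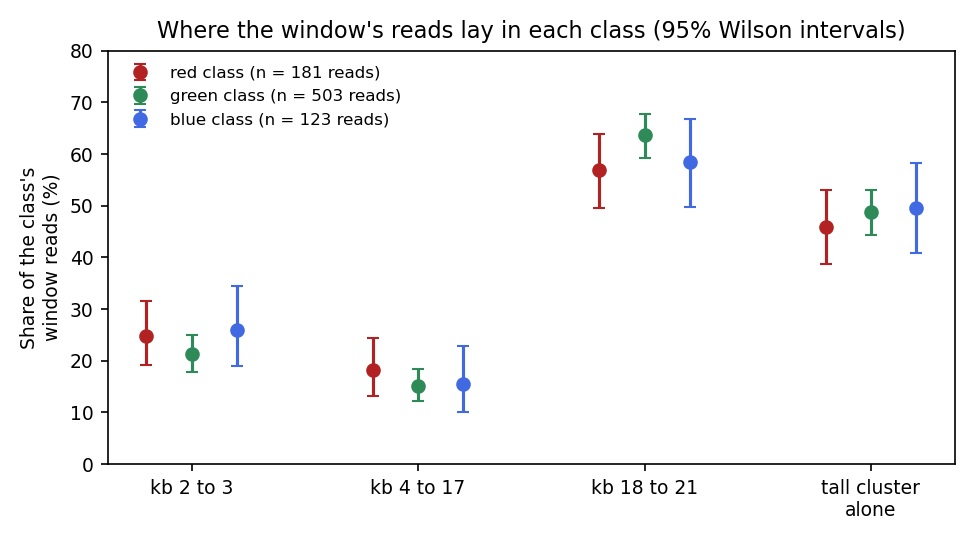
Share of each class's plus-strand reads in the window that fell in kb 2 to 3, 4 to 17 and 18 to 21, and the tall cluster alone; points are percentages of 181 red, 503 green and 123 blue reads and bars are 95% Wilson intervals. The tall cluster took 45.9% of red, 48.7% of green and 49.6% of blue reads, with intervals that overlap.

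Overlapping reads were merged into runs, and a run was called a cluster where 10 or more reads overlapped at its highest point, the summit, and every class was present. The window held 56 runs, of which 7 (12.5%) were clusters. Without the green class, and with both others required, 4 clusters were found. Over all 962080 runs outside the mitochondrial chromosome, 0.677% were called by the same rule. The window was picked for a cluster, so nothing is read from that contrast. The 7 clusters held 634 of the 807 reads, or 78.6% (95% Wilson interval 75.6 to 81.3), and 17 of the remaining 49 runs were single reads. The run nearest to the rule without meeting it lay at 129258637 to 129258732, with 10 reads at its summit, 8 green and 2 red, and no blue read. The cluster that passed most narrowly was the 85 nt run from 129258491 to 129258575, with 11 reads at its summit, 7 green, 3 red and 1 blue.

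The tall cluster ran from 129260073 to 129261041, a width of 969 nt, and began 1664 nt before the end of the read stretch. It held 389 reads, which was 48.2% of the window's plus-strand reads (95% Wilson interval 44.8 to 51.7). At its summit, from 129260559 to 129260567, 142 reads overlapped, and 41 did at the highest point without the green class. The cluster had 401 reads per kb and the rest of the window 20.9 per kb, a ratio of 19.2. Within the classes the ratio was 17.5 for red, 19.6 for green and 20.3 for blue.

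The tall cluster took between 45.9% and 49.6% of the window's reads in each class. It held 83 of 181 red reads, or 45.9% (95% Wilson interval 38.8 to 53.1). It held 245 of 503 green reads, or 48.7% (44.4 to 53.1), and 61 of 123 blue reads, or 49.6% (40.9 to 58.3). The largest difference, blue over red, was 3.74 percentage points with a Newcombe interval from -7.59 to 14.975. The classes were thus not told apart by this share at this depth. The make-up of the cluster was also set beside that of the rest of the window. Green reads made 63.0% of the cluster (58.1 to 67.6) and 61.7% of the rest (56.98 to 66.3), a difference of 1.26 points (-5.42 to 7.90).

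**Figure D3:**
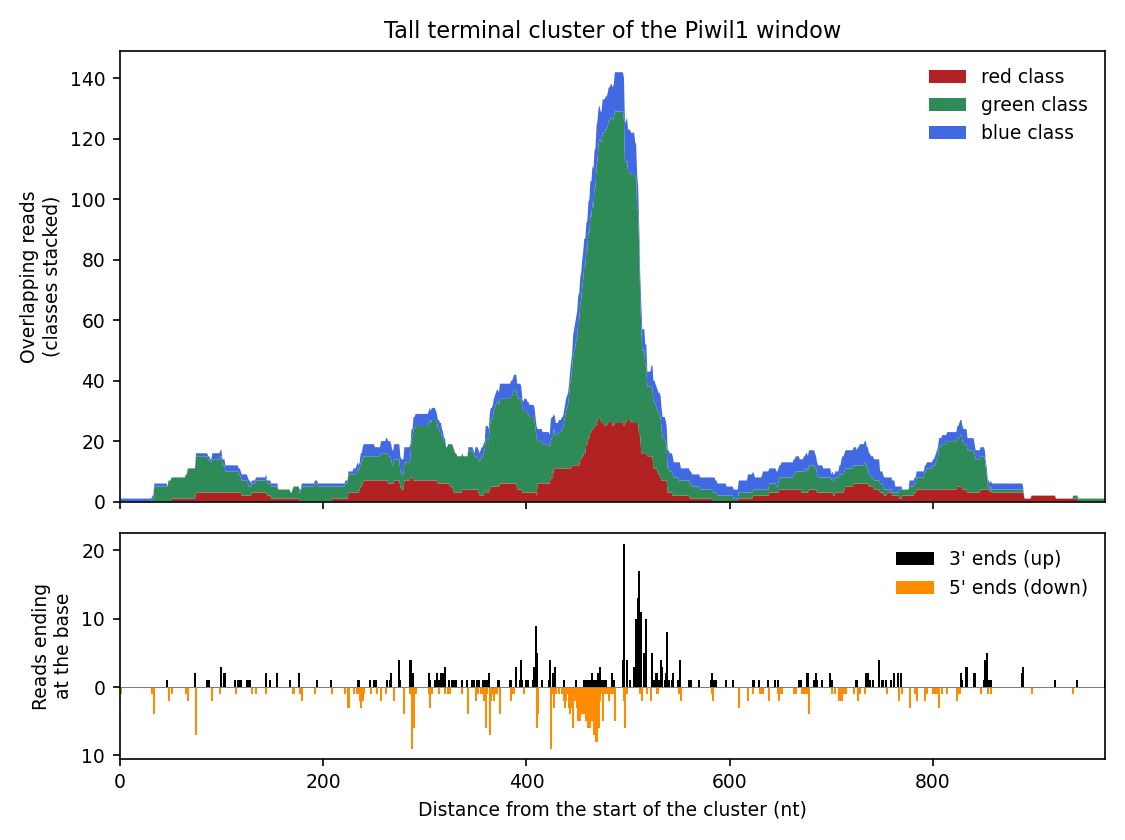
Upper panel, overlapping reads along the tall cluster with the red, green and blue classes stacked, by distance in nt from the cluster's first base. Lower panel, number of reads whose 3' end (up) or 5' end (down) lies at each base; the summit of 142 reads stands at 487 to 495 nt, with the commonest 3' end, of 21 reads, directly after it.

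Inside the tall cluster the reads formed 1 sharp peak on a broad base. Coverage averaged 20.7 reads over the 969 nt, with a median of 12, so the summit was 6.85-fold above the mean. Only 60 bases, from 129260525 to 129260584, were covered to at least 50% of the summit height, and 577 bases were covered by at least 10 reads. Local summits, defined as at least 20 reads with coverage falling to at most 75% of the lower of 2 neighbours, numbered 6. The first 3 lay upstream of the main summit, at 129260334, 129260377 and 129260460, and held 21, 31 and 42 reads. After the main summit coverage fell to 4 reads and rose again to 20 reads at 129260805 and to 27 reads at 129260899. Heights thus increased toward the main summit from upstream and were lower and separated by deep valleys downstream of it.

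The classes were also counted at the pooled summit, whose place the green reads themselves largely fix. There lay 103 of the 245 green reads of the cluster, or 42.0% (95% Wilson interval 36.0 to 48.3), 26 of the 83 red reads, or 31.3% (22.4 to 41.9), and 13 of the 61 blue reads, or 21.3% (12.9 to 33.1). These shares describe the place where the green reads are highest and do not show that the classes differ, and copies of single molecules were not told apart from separate ones. Each class had its own highest point close by. The red class reached 28 reads at 129260544, the green class 103 reads from 129260559 to 129260567 and the blue class 14 reads, first at 129260568 and last at 129260578, so the class summits fell within 35 bases. The green share at the 6 local summits, in order along the cluster, was 42.9%, 64.5%, 73.8%, 72.5%, 35.0% and 63.0%. The lowest was at 129260805, where red gave 6, green 7 and blue 7 of 20 reads (interval for green 18.1 to 56.7), and the highest was just upstream of the main summit. In 20 bins of 50 nt along the cluster, log2(reads + 1) of the red class had a Pearson's r of 0.82 with green and 0.80 with blue, and green had 0.58 with blue.

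Reads at the main summit stopped at shared 3' ends. The 142 reads there had 51 different 5' ends and 28 different 3' ends. The commonest 3' end of the cluster, 129260568, closed 21 reads, 20 of them green, 1 blue and 0 red, and these began at 21 different bases from 129260504 to 129260533. The next commonest were 129260583 with 17 reads and 129260582 with 13. The 21 bases from 129260568 to 129260588, set off after the ends were seen, took 99 of the 389 3' ends. They closed 32.2% of the green reads of the cluster (95% Wilson interval 26.7 to 38.3), 13.3% of the red (7.56 to 22.2) and 14.8% of the blue (7.96 to 25.7). Green gave 79 of those 99 ends and so largely fixed where the bases were set off. These shares therefore do not show that the classes differ. The most reads on any 5' end of the cluster was 9, a number reached at 129260359 and at 129260496. Over the whole cluster the 2 kinds of end were spread alike, with 190 different 5' ends and 187 different 3' ends. The contrast between them thus holds for the summit, where most reads were green. No reads in the file share both ends on a strand, so reads that share a 3' end necessarily differ at the 5' end.

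Thinning was done first by the 5' end, keeping 1 read for each such end in a class. This removes copies whose 3' ends differ and also separate molecules that start at the same base. The tall cluster then had 251 reads and a summit of 76. Keeping 1 read per 3' end and class after that left 179 reads and a summit of 35. The cluster kept its bounds from 129260073 to 129261041 through both steps. By summit it had rank 3 of 3585 clusters after the first step and rank 12 of 2001 after the second, and by width rank 3 after each. In the 21 bases of shared 3' ends, the order of the classes changed with the thinning. After the first step 24.3% of green, 9.38% of red and 15.7% of blue reads ended there. After the second step the shares were 9.20%, 6.12% and 11.6%, with green below blue. That step leaves at most 21 reads of a class in these 21 bases, so green, with the most reads there, was bound to lose most. The change of order therefore does not show that the classes differ. The green share of the whole cluster was 54.2% after the first step and 48.6% after the second, against 63.0% with all reads. Thinning by ends removes more from a class with more reads on the same bases, so this fall does not tell the classes apart.

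**Figure D4:**
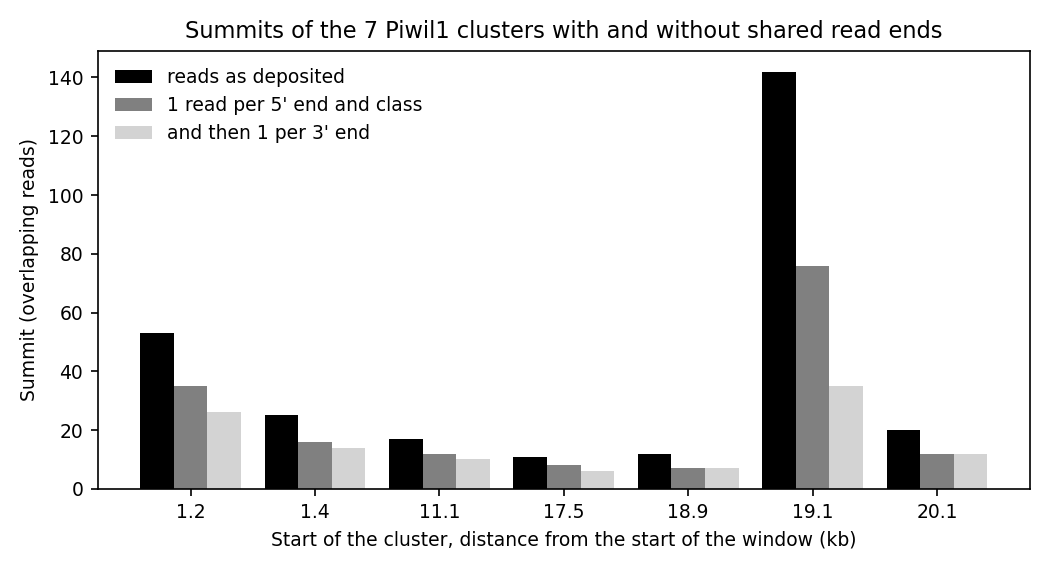
Summit, in overlapping reads, of each of the 7 clusters of the Piwil1 window, labelled by its start in kb from the start of the window, from all deposited reads and after thinning by 5' ends, then by 3' ends as well. The tall cluster falls from 142 to 76 and 35 reads and remains the highest of the 7.

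At the upstream end of the stretch, a pair of clusters stood side by side. The first ran from 129242179 to 129242369 and held 68 reads, 18 red, 37 green and 13 blue, with 53 of them overlapping at 129242321. The second ran from 129242370 to 129242825 and held 84 reads, 17 red, 53 green and 14 blue, with a summit of 25 from 129242592 to 129242598. After the tall cluster, the first of these had the highest summit in the window, and the second the most reads. Their class shares were near those of the window, with 54.4% and 63.1% green.

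No base and no read joined these neighbours. The first cluster ended at 129242369 and the second began at the next base, with 0 reads across the boundary. The last base before it was covered by 8 reads, 6 green, 1 red and 1 blue, and the first base after it by 1 read. All 8 reads ended there, from 8 different 5' ends. That number of 5' ends was fixed in advance, since no reads in the file share both ends. That end was the commonest 3' end of the first cluster. The first cluster was also sharply peaked, with its summit 48 nt before the boundary, while the second spread over 456 nt. Over the whole file, 50 pairs of neighbouring clusters on 1 strand had no base between them, among 6509 clusters. Each read is listed as 1 unbroken interval, so reads spliced across an intron would not appear here.

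The other 4 clusters were smaller. One in the middle, from 129252089 to 129252215, had 19 reads, 7 red, 7 green and 5 blue, with a summit of 17, and so had the lowest green share of the 7, at 36.8%. The cluster from 129258491 to 129258575, described above, lay in the last 4 kb. The cluster from 129259884 to 129259987 ended shortly before the tall one and held 14 reads, 3 red, 10 green and 1 blue, 6 of which began at 129259886. The cluster from 129261121 to 129261337 followed the tall one after a gap of 79 nt and held 49 reads, 8 red, 34 green and 7 blue, with a summit of 20. When runs up to 100 nt apart were joined, 5 runs from 129259819 to 129261337 made 1 region with 456 reads, or 56.5% of the window. The terminal reads therefore extended over more than the tall cluster itself.

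Among the 49 runs below the cluster rule, the largest held 19 reads at 129243041 to 129243274, with 8 at its summit, and 18 reads at 129253173 to 129253351, with 9 at its summit. Both held reads of all 3 classes. Some runs came from 1 class or nearly so. The run at 129247024 to 129247077 consisted of 5 blue reads, and that at 129246815 to 129246908 of 8 green reads and 1 red read. At such counts neither the presence of a class nor its absence can be read as a difference between libraries.

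Reads of the tall cluster were a little longer than the others. Their median length was 52 nt (interquartile range 43 to 61), against 47 nt (39 to 58) in the rest of the window and 46 nt (39 to 56) over the file. The median was above that of the rest of the window in each class, at 54 against 50 nt for red, 50 against 45.5 nt for green and 53 against 49.5 nt for blue. At 74 nt, the longest length in the file, lay 7.20% of the cluster's reads (95% Wilson interval 5.03 to 10.2). In the rest of the window 5.50% did (3.69 to 8.12), so these shares were not told apart at this depth. Over the file it was 4.18% (4.15 to 4.21), below the interval of the cluster. By class this contrast was marginal. The file's share was 5.45% for red, inside the interval of the cluster's red reads (4.97 to 17.9). For green it was 2.822%, at the lower limit (2.824 to 8.36), and for blue 6.52%, just below the interval (6.80 to 23.8). These intervals reflect counting error alone. Longer reads cover more bases, and this adds to the coverage of the cluster. The cluster was picked by its height, so its read lengths are given as a description.

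**Figure D5:**
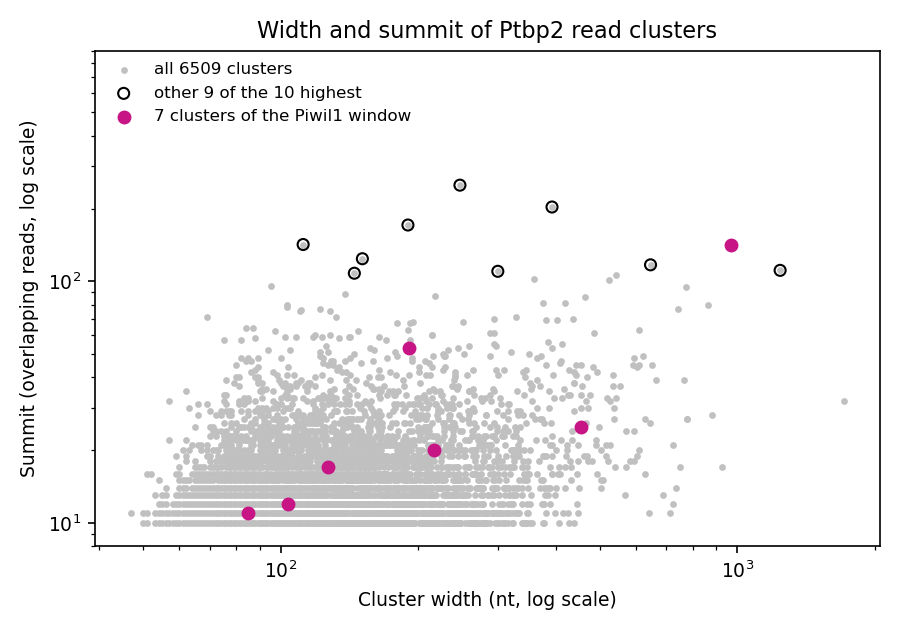
Width in nt against summit in overlapping reads, both on log scales, for all 6509 clusters (grey), the other 9 of the 10 highest clusters (open circles) and the 7 clusters of the Piwil1 window (filled). The tall cluster, at 969 nt and 142 reads, lies at the upper right, and the other 6 have widths of 85 to 456 nt and summits of 11 to 53.

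Set against all 6509 clusters, the tall cluster had rank 4 by summit, shared with 1 other, rank 4 by reads and rank 3 by width. The median cluster was 118 nt wide and held 17 reads. The other 9 of the 10 highest clusters were 112 to 1242 nt wide (median 247 nt), and 1 of them was wider. Their summits stood 1.96-fold to 5.08-fold above their mean coverage, below the 6.85-fold of the Piwil1 cluster. This ratio cannot exceed the width over the mean read length, so narrow clusters are held to low values. The 1 wider cluster, of 1242 nt, had 3.04-fold. The Piwil1 cluster thus joined a narrow summit with a wide base, and with 1 cluster set against 9 that were picked by height this is a description.

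The tall cluster also had more company on its strand than most of these. Within 20 kb on either side, it held 47.7% of the same-strand reads and had 6 other clusters beside it. The same share ran from 25.9% to 99.4% for the other 9 (median 73.1%), and 6 of them had 0 other clusters within that distance. Those with more than 6 were the pair on chromosome 17, with 11 each. These 9 were picked by height, and the lower clusters most like the tall one in class shares had similar numbers beside them, as given next. Over tiles of 21 kb, 54 of 120375 held 7 or more clusters.

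By class composition, the clusters most like the tall one among the other 68 with at least 100 reads lay on the minus strands of chromosomes 7, 16 and 14. Likeness was the summed absolute difference of the red, green and blue shares, 3 values in all. The closest ran from 25858334 to 25858825 on chromosome 7, with a summed difference of 1.95 percentage points and 62.8% green reads. The others ran from 10791807 to 10792193 on chromosome 16, at 1.97 points, and from 124856372 to 124856924 on chromosome 14, at 3.27 points. Their summits, 42, 30 and 37 reads, were lower than that of the Piwil1 cluster, and no genes were assigned to them. They had 5, 5 and 8 other clusters within 20 kb on their strand and held 18.97%, 30.2% and 24.7% of the reads there, against 6 clusters and 47.7% for the Piwil1 cluster.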

How the data were processed

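Bowtie and mm9 are the aligner and build that the submitters' processing notes name. The Bowtie version, its settings and the treatment of duplicates: not given in the sources used here. Sequenced reads began with linker bases, per the labels' protocols. The authors deposited a single file for 3 libraries, with 1 line per read. Its deposited score was 0 throughout and was not used. No lines shared chromosome, ends and strand, so a read with the same ends in several libraries could be listed under 1 colour only. That would lower tall sites and could shift the class shares there. How a colour was assigned to such a read is not given. Starts are counted from 0 in the file and from 1 here.

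Reads were counted from the deposited lines with Python 3.11.15, numpy 2.4.6, pandas 2.3.3 and scipy 1.17.1. Reads sharing at least 1 nt on a strand formed runs. Run merging and local summits were tested on simulated data. Where reads were thinned to 1 per 5' end, the longest was kept. No comparison between animals or conditions was possible, and no p-value is given.

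The window, comparison set and rules were chosen with earlier results of these data known. Named loci are Piwil1, the other 9 of the 10 highest clusters and the 3 most alike in class shares; further runs and ends were chosen after their values were seen.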

Additional observations from a re-analysis of the deposited data

How the results depend on the processing

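Keeping 1 read per 5' end and class moved the share of the tall cluster from 48.2% to 43.9%, its summit from 142 to 76 reads, its green share from 63.0% to 54.2% and the density ratio to chromosome 5 from 94.5 to 78.5. Keeping 1 per 3' end after that gave 39.0%, 35 reads, 48.6% and 66.7, with 459 reads in the window. After each of these steps 5 of the 7 clusters met the cluster rule. Leaving out 1 class at a time, with both others required, gave 304 to 684 reads in the window, a summit of 41 to 129, 4 to 8 clusters and a density ratio of 78.6 to 103, the lowest of each without green; the highest ratio was without red and the other maxima without blue. A summit of at least 20 reads left 4 of the 7 clusters. Widening the window by 2 kb a side lowered the density ratio to 80.004. Joining runs up to 100 nt apart, chosen after seeing the data, raised the terminal share to 56.5%. The drop in clusters under the higher minimum, the lower counts with fewer reads and the larger share of the wider region follow from those settings. So does the lower density ratio of the widened window, whose added sequence held few reads. The cause of the other shifts in shares and in the density ratio was not tested. The remaining 27 of 44 values stayed within the interval of the reported value or within 1.5 times a count, the plus-strand share under each setting run. No paired analysis was possible because only 1 group exists. Depth limits the blue class most, with 61 reads in the tall cluster.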
